A study of Taeniopygia guttata with 134 samples.

Results

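Among male zebra finches (Taeniopygia guttata) that received a control injection, gene expression in males housed with a female was compared with that in males kept alone, in 3 brain regions. These are all the libraries whose label carries the code S for the injection, 68 of the 134 libraries of the series. They came from 23 males by the numbers in the labels, of which 22 gave all 3 regions and 1 gave 2. The alone group (ISO) held 6 males in every region. The males with a female were 5 that stayed with a female they knew (KFC), 6 that were reunited with one (KF) and 6 that met an unfamiliar female (NF, 5 in the nucleus taeniae), so 17 males stood against 6 in 2 regions and 16 against 6 in the third. The other 66 libraries of the series are from males injected with lipopolysaccharide (LPS), a bacterial cell wall component. What the control injection contained, the time between injection, pairing and dissection, and the age of the birds are not stated by the labels.

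Tissue came from the hypothalamus (HY), from nucleus taeniae (TN) and from a part of the extended amygdala, called bed nucleus of the stria terminalis and labelled NST. Nucleus taeniae is a part of the avian amygdala usually set beside the medial amygdala of mammals. All belong to the social behaviour network, a set of linked forebrain and midbrain areas that carry sex steroid receptors and take part in courtship, pairing and aggression in vertebrates. The zebra finch forms lasting pairs and lives in groups, so that being alone and being with a familiar or a new partner are distinct social states for a male. Each library measured polyadenylated RNA of 1 region of 1 male as read counts per gene, given below as CPM, the counts relative to the scaled size of the library. Gene identifiers could not be paired with names, since none of 18618 was found in the gene table at hand. Pathways and cell types could therefore not be read from the data, and the labelled regions could not be checked against marker genes.

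The median total count of males alone and of males with a female was 8625966 and 8692235 in HY. It was 9955176 and 9328373 in NST, and 12508305 and 11194534 in TN. In NST and TN the males alone were thus sequenced somewhat deeper, and whether this bears on the comparison was not tested. Total counts of males alone ran from 8058430 to 9123265 in HY, 8975669 to 11879211 in NST and 11290509 to 14096470 in TN. Those of males with a female ran from 7339294 to 13159755, 7981242 to 10998992 and 9659886 to 12479980. Across genes, all control libraries but 1 were closest to the median profile of their own region. NST of NF male 4 was the exception, with a correlation of 0.971 with the TN median and 0.968 with that of NST. HY of KF male 44 had the lowest correlation with the median of its own region, at 0.913. Some counts below are also given without these libraries.

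No gene passed the test between males with a female and males alone in any region. The difference tested was the mean of the KFC, KF and NF groups, each with equal weight, minus ISO. In HY 0 of 14420 genes (0%) reached an adjusted p under 0.05, in NST 0 of 14386 (0%) and in TN 0 of 14598 (0%) with edgeR's quasi-likelihood test and Benjamini-Hochberg adjustment. The smallest adjusted p was 0.209 in TN, 0.959 in NST and 1 in HY. DESeq2 called 3 genes in TN, all higher with a female, and 0 in both other regions. Leaving out KFC male 63, NF male 58 or NF male 37 gave 3, 2 and 1 calls in TN with edgeR. In bulk tissue a lower value can stand for fewer cells of a type or for less RNA per cell, and these cannot be told apart.

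Without adjustment, 1099 genes of TN (7.53%), 622 of NST (4.32%) and 451 of HY (3.13%) had a p under 0.05. Those higher with a female numbered 584, 253 and 218, and those lower 515, 369 and 233, in the same order. The p-values were thus spread differently in the regions. In HY and NST the lowest bin held fewer genes than the average bin, and in TN it held more. Without 1 control library at a time the number ran from 394 to 577 in HY, from 472 to 756 in NST and from 849 to 1387 in TN. In NST it was 579 with the libraries of NF male 4 and of an LPS-injected NF male left out together.

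**Figure D1:**
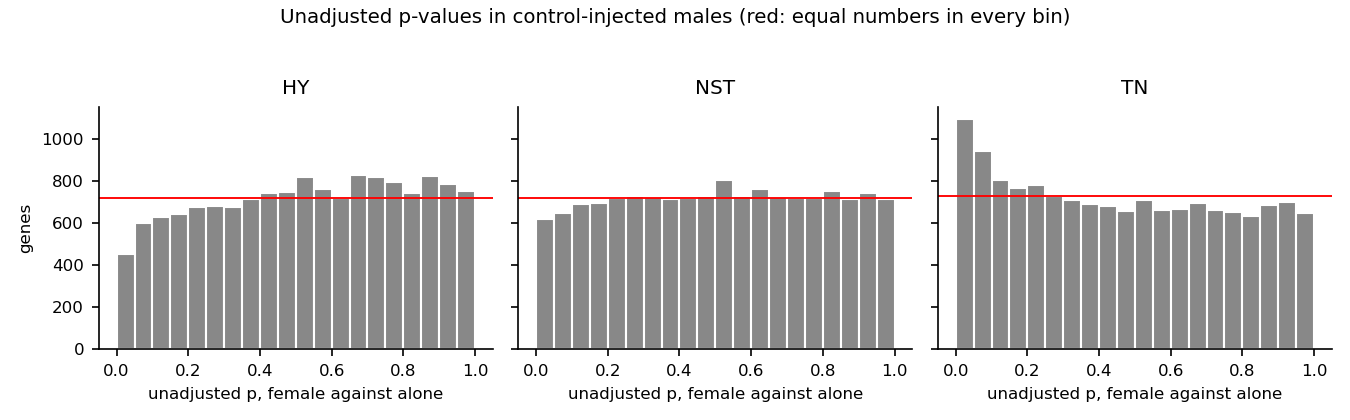
Histograms of the unadjusted p-values of the comparison of males with a female and males alone, 1 panel per region, with the number of genes in each bin of width 0.05 on the vertical axis. The red line is the height that equal bins would have, and the first bin is highest in TN at 1099 genes, with 622 in NST and 451 in HY.

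The data bound the size of the difference for most genes. The 95% interval of the log2 difference lay wholly between -1 and 1, that is, within a 2-fold change either way, for 84.9% of the genes of HY, 83.9% of those of NST and 80.3% of those of TN. It lay between -0.5 and 0.5 for 59.4%, 59.2% and 52.3%. The median SE of a log2 difference was 0.155, 0.147 and 0.163, against a median absolute difference of 0.0963, 0.0956 and 0.122. Fitted differences over 2-fold were found for 176, 186 and 275 genes, none of which passed. For genes whose interval did not lie wholly between -1 and 1, it reached to or beyond a 2-fold difference in at least 1 direction. In the same fits, LPS against control injection in males alone, with 6 males a side, called 185 genes of NST (1.29%), 159 of HY (1.1%) and 154 of TN (1.05%).

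Most differences over 2-fold were in genes under 10 CPM. Of 585 genes with a mean under 1 CPM, 63 differed by over 2-fold in TN, 55 in NST and 53 in HY. Of 4083 genes from 1 to 10 CPM, 117 did in TN, 89 in NST and 81 in HY. Of 7442 genes from 10 to 100 CPM, 16, 10 and 8 did in the same order, and of 2030 genes over 100 CPM, 6, 5 and 7. The median absolute log2 difference fell from 0.375 under 1 CPM to 0.057 over 100 CPM in HY, from 0.382 to 0.0498 in NST and from 0.366 to 0.0714 in TN. Complete separation of the groups was found for 1 gene in HY (0.00693% of those tested), in which every male with a female lay above every male alone, and for 0 genes in NST (0%) and 0 in TN (0%).

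The direction of the difference was then compared over the regions. Of 14140 genes tested in all 3 regions, 3418 were fitted higher with a female in all 3 and 3168 lower in all 3, so that 6586 (46.6%) had 1 direction throughout. The rest were higher in 2 regions (3717 genes) or in 1 (3837 genes). By pairs, 66.5% of genes had the same sign in NST as in HY, 63.8% in TN as in NST and 62.9% in TN as in HY. The share with 1 direction in all 3 was 48.5% under 1 CPM, 47.9% from 1 to 10 CPM, 47% from 10 to 100 CPM and 41.6% over 100 CPM. It was thus lowest among the most abundant genes.

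These counts are not independent over regions, because the same males gave all of them. The deviation of a control male from its group mean was alike in its regions. Across genes its median correlation over 22 males was 0.572 in the pair NST and HY, 0.549 in the pair TN and NST and 0.49 in the remaining pair, and the lowest in any male was 0.257. A direction shared by the regions and a likeness of the regions within a male cannot be told apart from these counts. Genes share these males too and are not independent of each other.

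**Figure D2:**
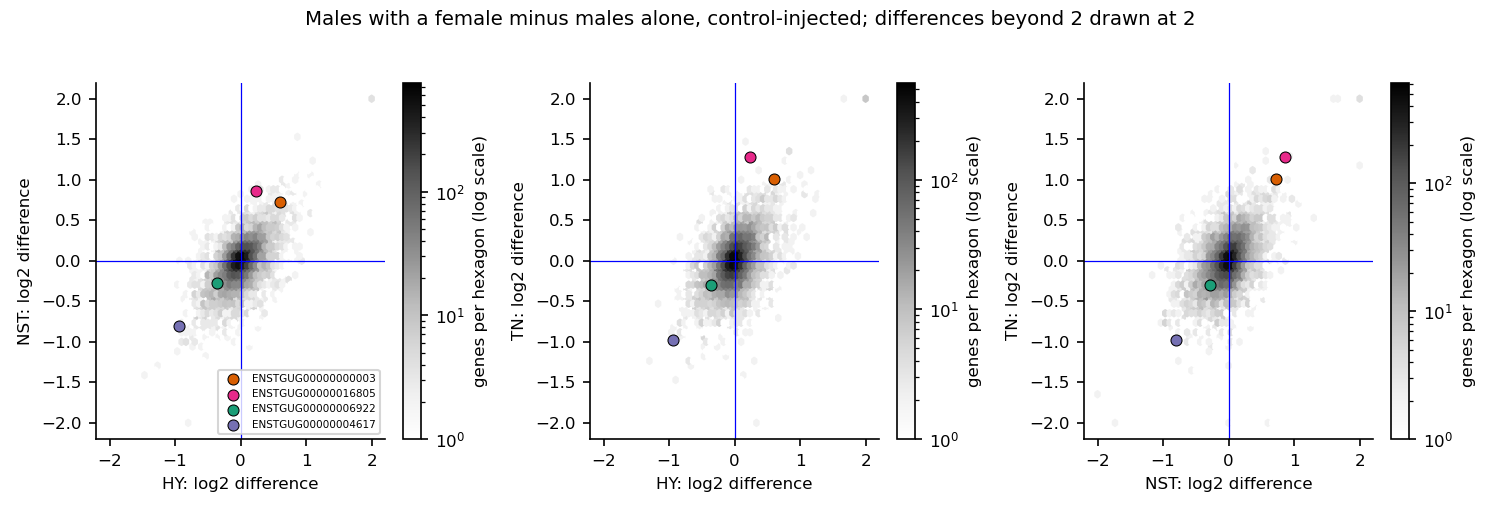
Log2 difference of males with a female minus males alone in 1 region against that in another, over 14140 genes, with darker hexagons holding more genes (log scale) and values beyond 2 drawn at 2. The 4 coloured points are the genes described by identifier, which lie at the upper right (higher in both) or the lower left (lower in both) of every panel.

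Some genes had low p-values in more than 1 region. An unadjusted p under 0.05 was found in all 3 regions for 39 of the 14140 genes. Of these 21 were higher and 18 lower with a female, and all 39 had 1 direction throughout. In exactly 2 regions it was found for 200 genes and in exactly 1 for 1605. NST and HY had 108 such genes in common, 17.7% of the NST list and 24.7% of the HY list, of which 106 had the same direction. TN and NST had 119 in common (11.1% of the TN list and 19.5% of the NST list), 117 of them with the same direction. TN and HY had 90 in common (8.39% and 20.5%), 85 with the same direction. All 3 lists come from the same males, so their overlap and shared direction are not independent either. The 39 genes had a median absolute log2 difference of 0.608 in TN, 0.461 in NST and 0.569 in HY, against 0.119, 0.0937 and 0.0942 over all genes, a size that low p-values in all regions bring with them. Their median level was 18.3 CPM in HY, 16.3 in NST and 14.2 in TN, below the 22.8, 21.7 and 20.6 CPM of all genes. Without KF male 34 there were 61 such genes in place of 39, and 34 to 58 without any other control male. DESeq2 gave 54.

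A test with 1 value per male avoids counting a male more than once. The mean of log2 CPM over the 3 regions was tested with limma in males that gave all 3, and 0 of 14140 genes passed (0%, smallest adjusted p = 0.785). An unadjusted p under 0.05 was found for 830 genes (5.87%), 426 higher and 404 lower with a female. The count was 731 without HY of KF male 44, NST of NF male 4 and NST of an LPS-injected NF male. The ranges given next are of genes with at least 1 CPM in every region. The 10 with the lowest p among those higher in every region differed by 0.315 to 0.79 on the log2 scale, and the 10 among those lower in every region by 0.2 to 1.54. The intervals of this fit, which differs from those per region in the averaging and in the tool, lay between -1 and 1 for 92.2% of genes.

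The converse was also tested, namely whether the difference between males with a female and males alone itself differed between regions. With the male as a block, 0 of 15097 genes (0%) passed in each comparison of 2 regions with edgeR. The unadjusted count was 330 (2.19%) for NST minus HY, 663 (4.39%) for TN minus HY and 702 (4.65%) for TN minus NST, and limma on differences within males also called 0, 0 and 0. No gene was therefore shown to respond in 1 region more than in another, and these tests do not show that the regions were alike.

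By rule, 4 genes are described by identifier, the 2 higher and the 2 lower genes with the smallest p for the mean over regions among 6093 that had 1 direction throughout and at least 1 CPM in every region. They were chosen for this difference, so their values below are a description. None passed with edgeR or limma.

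ENSTGUG00000000003 was an abundant gene that stood higher with a female. In TN it ranged from 59.5 to 103 CPM in the 6 males alone (median 82.1) and from 54.0 to 286 CPM in the 16 males with a female (median 158). In NST it ranged from 68.3 to 110 CPM in males alone (median 95.2) and from 55.7 to 275 CPM in males with a female (median 142). In HY the range was 33.1 to 73.3 CPM alone (median 55.0) and 49.8 to 164 CPM with a female (median 78.1). The groups overlapped in every region, although 13 of 16 males with a female in TN, 14 of 17 in NST and 10 of 17 in HY exceeded the highest male alone. Males with a female were also more spread, with an SD of 69.9 CPM against 14.3 CPM alone in TN.

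The log2 difference of this gene was 1.01 in TN (SE 0.23), 0.73 in NST (SE 0.21) and 0.60 in HY (SE 0.20), with edgeR adjusted p of 0.257, 0.999 and 1. Over the alternatives the adjusted p in TN ran from 0.0111, with DESeq2, to 0.562. It was 0.0286 with edgeR without KFC male 63, the lowest of the control males in TN at 54.0 CPM. All settings with a female contributed. In TN the log2 difference from ISO was 1.03 in KFC (SE 0.27), 0.92 in KF (SE 0.26) and 1.09 in NF (SE 0.27). In NST it was 0.92 in KFC (SE 0.26), 0.48 in KF (SE 0.25) and 0.78 in NF (SE 0.25). In HY it was 0.57 (SE 0.25), 0.47 (SE 0.24) and 0.75 (SE 0.24), in the same order. These comparisons share the same ISO males.

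ENSTGUG00000016805 had a lower level and its largest difference in TN. There it ranged from 3 to 8.88 CPM in males alone (median 7.29) and from 6.92 to 29.8 CPM in males with a female (median 12.6). In NST the values were 2.96 to 9.95 CPM alone (median 7.64) and 4.36 to 23.6 CPM with a female (median 11.6). In HY they were 3.16 to 7.46 CPM alone (median 4.73) and 3.09 to 11.7 CPM with a female (median 5.56). In TN 12 of 16 males with a female exceeded every male alone, in NST 10 of 17 and in HY 2 of 17. NF male 39 was highest in TN for this gene and for ENSTGUG00000000003, and NF male 4 was highest in HY for both. NF male 4 was also highest in NST for ENSTGUG00000016805, in the library that was closest to the TN median.

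Its log2 difference was 1.28 in TN (SE 0.26), 0.87 in NST (SE 0.29) and 0.23 in HY (SE 0.21), with edgeR adjusted p of 0.209, 0.999 and 1. In TN the adjusted p was 0.0015 with DESeq2 and 0.0415, 0.0339 and 0.0431 without NF male 37, NF male 58 and KFC male 63, within a range of 0.0015 to 0.562. The size there was 1.45 in KFC (SE 0.31), 0.98 in KF (SE 0.29) and 1.41 in NF (SE 0.31). The difference was larger in TN than in HY by 1.05 (SE 0.26), which did not pass the test over all genes (edgeR adjusted p = 0.751). This gene and ENSTGUG00000000003 were 2 of the 3 genes that DESeq2 called in TN, and the third had a log2 difference of 0.44 (adjusted p = 0.0196).

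ENSTGUG00000006922 was lower with a female by a small and even amount. In HY it ranged from 121 to 166 CPM in males alone (median 135) and from 74.0 to 134 CPM in males with a female (median 107). In NST it ranged from 97.5 to 142 CPM alone (median 120) and from 79.7 to 117 CPM with a female (median 101). In TN the values were 110 to 158 CPM alone (median 119) and 85.8 to 124 CPM with a female (median 100). The groups overlapped in each region, with 13 of 17 males with a female below every male alone in HY, 6 of 17 in NST and 12 of 16 in TN.

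Its log2 difference was -0.36 in HY (SE 0.10), -0.28 in NST (SE 0.08) and -0.30 in TN (SE 0.08), with edgeR adjusted p of 1, 0.999 and 0.350. By setting it lay between -0.40 and -0.23 in all 9 comparisons with ISO. These are not independent, since they share the ISO males and the regions come from the same males. KF male 44, whose HY library stands apart, had the lowest value in HY. Over all alternatives, with leaving out that library among them, the difference in HY stayed between -0.40 and -0.30.

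ENSTGUG00000004617 was a gene of low level that was also lower with a female. In TN it ranged from 3.19 to 6.08 CPM in males alone (median 3.73) and from 0.414 to 4.96 CPM in males with a female (median 1.98). In HY the values were 2.32 to 7.66 CPM alone (median 3.58) and 0.461 to 4.07 CPM with a female (median 2.13). In NST they were 1.94 to 4.95 CPM alone (median 2.52) and 0.692 to 3.34 CPM with a female (median 1.61). In TN 14 of 16 males with a female lay below every male alone, in NST 10 of 17 and in HY 9 of 17. ISO male 13 was the highest of the control males in every region.

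Its log2 difference was -0.98 in TN (SE 0.34), -0.93 in HY (SE 0.32) and -0.80 in NST (SE 0.32), with edgeR adjusted p of 0.467, 1 and 0.999. Over all alternatives, single control libraries left out among them, it stayed between -1.04 and -0.62 in HY. The corresponding range was -1.13 to -0.82 in TN and -0.91 to -0.62 in NST.

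**Figure D3:**
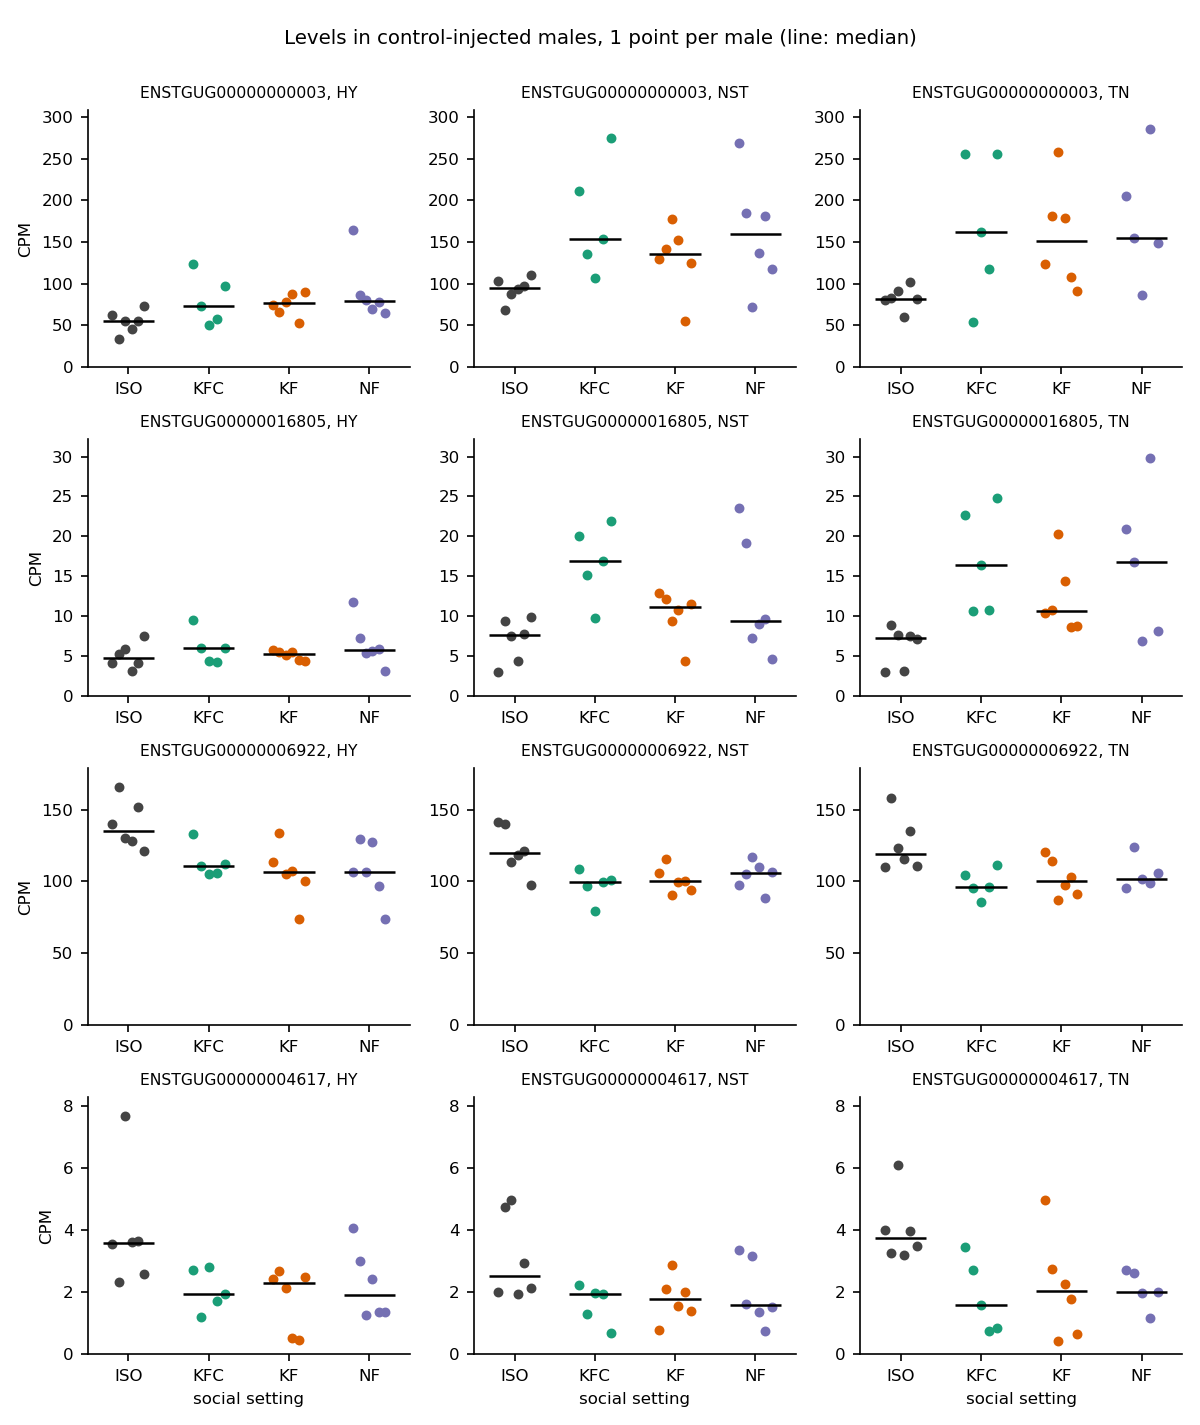
Level in CPM of the 4 genes in each control-injected male, by social setting (horizontal axis) and region (columns), with a line at the median of each setting. In TN the medians of ENSTGUG00000000003 and ENSTGUG00000016805 with a female lie above those of males alone (ISO) in KFC, KF and NF, and those of ENSTGUG00000006922 and ENSTGUG00000004617 lie below, while single males overlap.

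The settings averaged together were also tested one by one against the same ISO males. With edgeR 0 genes (0%) passed in each of these 9 comparisons. In HY an unadjusted p under 0.05 was found for 361 genes in KFC (2.5%), 1232 in KF (8.54%) and 408 in NF (2.83%). Without KF male 44, whose library stood apart in HY, the count in KF fell to 383. Those in KFC and NF rose to 497 and 584. In NST there were 894 in KFC (6.21%), 524 in KF (3.64%) and 545 in NF (3.79%), and in TN 889 (6.09%), 875 (5.99%) and 908 (6.22%). Without NST of NF male 4 and of an LPS-injected NF male, the NST counts were 945, 546 and 434. DESeq2 called 2 genes in KF in NST, 1 in KFC in TN and 5 in NF in TN, and 0 in the other 6 comparisons. With edgeR 1 gene passed for KFC in TN without KFC male 62 or without KFC male 70.

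A difference among KFC, KF and NF was found for 0 genes (0%) in each region with edgeR, in a test with 2 degrees of freedom. Unadjusted, 476 genes of TN (3.26%), 709 of NST (4.93%) and 1085 of HY (7.52%) had a p under 0.05. The count in HY was 521 without KF male 44. In NST 13 genes passed without NF male 58 and 1 without KF male 36, and DESeq2 called 1, 18 and 2 genes in HY, NST and TN. In TN 1 gene passed without KFC male 62, 68 or 70.

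On the first 2 principal components no difference between males alone and the others was shown. The first principal component of log2 CPM held 18.4% of the variance in TN, 9.97% in NST and 20.3% in HY. Its mean score was -6.17 ± 9.55 (SD, n = 6) alone and 2.18 ± 33.8 (SD, n = 17) with a female in HY (2-sided permutation p = 0.628). It was 6.96 ± 17.7 against -2.46 ± 20 in NST (n = 6 and 17, permutation p = 0.335) and 9.33 ± 21.9 against -3.50 ± 32.5 in TN (n = 6 and 16, permutation p = 0.400). For the second component the permutation p was 0.309 in TN, 0.126 in NST and 0.561 in HY. After Benjamini-Hochberg adjustment over the 6 tests all were at least 0.6. In HY the first component was led by the library of KF male 44, with a score of 122, and without that library the difference changed from 7.56 to -1.57.

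**Figure D4:**
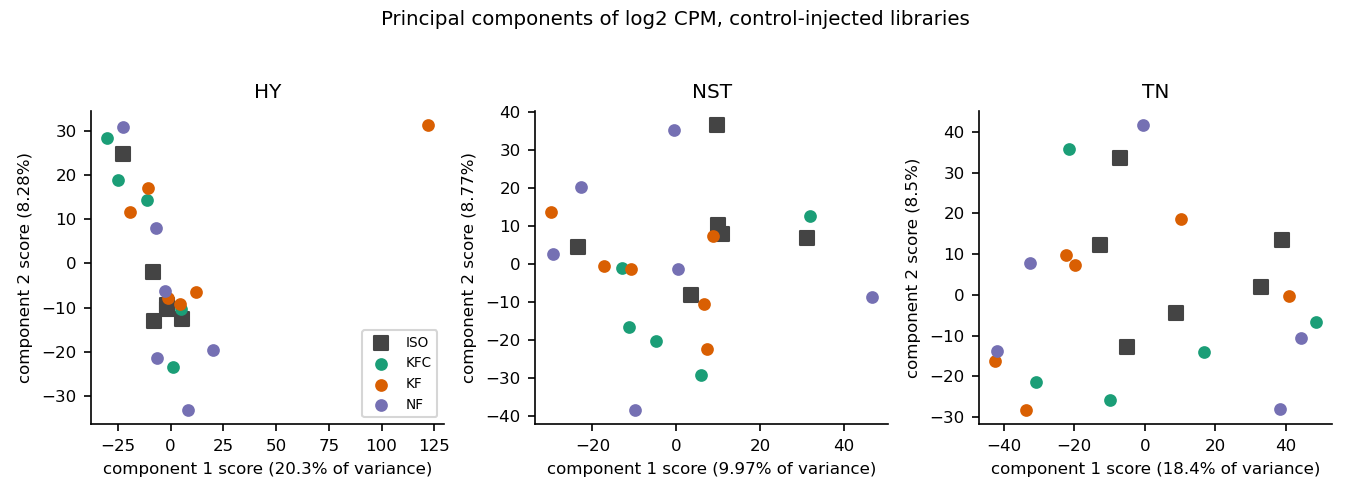
Scores of each control-injected library on the first 2 principal components of log2 CPM, 1 panel per region, coloured by setting, with males alone (ISO) as squares. Squares and circles intermix in all 3 panels, and the point at 122 on the first component in HY is KF male 44.

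The same comparison was made in the LPS-injected males, which are other birds. Their libraries entered the same fits, and so the filter, the scaling and the estimate of spread behind the p-values that chose the genes above. In the differences of control males only the control groups had weight, but their fitted values depend on this shared scaling and spread. There 26 genes of TN (0.178%), 2 of HY (0.0139%) and 1 of NST (0.00695%) passed with edgeR, and 14 genes (0.099%) passed for the mean over regions with limma. An unadjusted p under 0.05 was found for 1020 of the genes of HY (7.07%), 1404 of NST (9.76%) and 1900 of TN (13%), and for 1646 (11.6%) with the mean over regions. The female-minus-alone difference was also compared between the injections, as its value in LPS males minus its value in control males. For this contrast, called LPS minus control males, 0 genes (0%) passed in each region with edgeR. A change of that difference with the injection was thus not shown. Unadjusted, 1046 genes of TN (7.17%), 720 of NST (5%) and 681 of HY (4.72%) had a p under 0.05 for this contrast. DESeq2 called 1 gene in TN, 2 in NST and 0 in HY.

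ENSTGUG00000000003 was higher with a female in LPS males too, by 0.81 on the log2 scale in TN (SE 0.23), 0.79 in NST (SE 0.22) and 0.35 in HY (SE 0.20), with edgeR adjusted p of 0.115, 0.170 and 0.770. Its mean over regions differed by 0.62 (SE 0.17, limma adjusted p = 0.119). ENSTGUG00000016805 differed by 0.31 (SE 0.21, limma adjusted p = 0.597) and ENSTGUG00000004617 by -0.49 (SE 0.24, limma adjusted p = 0.433). ENSTGUG00000006922 differed by -0.05 (SE 0.08, limma adjusted p = 0.871), against -0.32 (SE 0.08) in control males, for which it was chosen. For this gene the female-minus-alone difference in LPS males minus that in control males was 0.34 in HY (SE 0.14), 0.24 in NST (SE 0.11) and 0.22 in TN (SE 0.12). That did not pass in any region (edgeR adjusted p of 0.993, 0.977 and 0.746). The fitted direction was the same in both injections for these 4 genes in every region, but none passed in the LPS males. Some of these LPS differences were smaller than their SE, so that their sign says little. They were -0.02 in HY (SE 0.10), -0.03 in NST (SE 0.08) and -0.08 in TN (SE 0.08) for ENSTGUG00000006922. For ENSTGUG00000016805 the difference was 0.03 in HY (SE 0.21). The other LPS differences of the 4 genes exceeded their SE.

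Over longer lists the direction in control males was shared with the LPS males only in part. Of the 39 genes with an unadjusted p under 0.05 in all 3 regions of control males, 26 (66.7%) had the same direction in LPS males for the mean over regions, against 7932 of all 14140 genes (56.1%). Their median difference, signed by the direction in control males, was 0.538 in control males and 0.0798 in LPS males. Over all 14140 genes the medians signed in this way were 0.0795 and 0.0213. The 39 genes were chosen for, and signed by, their difference in control males. A smaller value in other birds would come with that choice alone, and is not read as a result. Of the 830 genes with an unadjusted p under 0.05 for the mean over regions in control males, 555 (66.9%) had the same direction in LPS males for that mean. In all 3 regions 339 of the 830 (40.8%) had it, and 149 had the opposite direction in all 3. These shares were not tested. Of the 6586 genes with 1 direction in all regions of control males, 3678 (55.8%) had it in LPS males for the mean over regions. This was near the share of all genes. In all 3 regions 2135 (32.4%) had it, against 4315 of all 14140 genes (30.5%). The opposite direction in all 3 was found for 1686 of these 6586 genes, against 3284 of all 14140. As a share of each list, agreement and reversal in all 3 regions were thus both slightly more common among the 6586. Both shares were near those of all genes and are not read as a result.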

How the data were processed

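RNA was extracted from each region, and per the labels' protocols a NEBNext Ultra kit turned its polyadenylated RNA into libraries. Per the submitters' processing notes, HISAT2 and HTSeq 0.6.1 were used. The labels name no genome build, annotation or strand setting, so overlapping or near-identical genes may share reads. The values deposited by the authors are raw read counts per gene.

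Counts were fitted with edgeR 4.0.16 in R 4.3.3 per region to 8 groups (setting by injection), after filterByExpr (minimum count 10, minimum total 15) and TMM scaling, with robust quasi-likelihood tests. SE values derive from the fitted difference and its F statistic. Tests are 2-sided with Benjamini-Hochberg adjustment over all genes tested and a threshold of 0.05. Means over regions used log2 CPM (prior count 2) and limma 3.58.1. Differences between regions used all libraries with the male as a block, since the regions were dissected from the same birds. In all 22 control males with 3 regions, deviations from the group mean correlated between regions at over 0.1. Tests per region and of the mean over regions were judged against the spread between males, and tests between regions against that within males. Components were tested with 100000 permutations. The biological coefficient of variation in edgeR was 0.306 in TN, 0.272 in NST and 0.277 in HY.

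Over 737 pairs of control libraries within regions, chi-square per gene was at least 8.49, so none was merged. Gene identifiers matched 0 entries of the zebra finch gene table, so gene lists and markers could not be used. The named genes are the 2 higher and 2 lower by p for the mean over regions, with 1 direction throughout and at least 1 CPM in every region. Members, lists and tests were chosen with earlier results of these data known, and the comparisons in LPS males and the counts of direction under alternatives were added after the data were seen. The fits were run on simulated counts drawn independently for each library. These had no likeness of regions within a male, so that they do not show how the fits handle it. Alternatives were DESeq2 1.42.0, the RLE size factors, all genes without the count filter, control-injected libraries only, other weights, fewer settings, a prior count of 0.5, no block, and leaving out single libraries. Figures were drawn with matplotlib 3.10.9.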

Additional observations from a re-analysis of the deposited data

Results flagged for a closer look

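In 6 of 72 groups of control males 1 value lay far from the rest by Dixon's test at the 95% level, which chance alone does in about 1 group in 20. ENSTGUG00000004617 was at 7.66 CPM in HY and at 6.08 CPM in TN of ISO male 13, the highest of the males alone in both regions. ENSTGUG00000006922 was at 133 CPM in HY of KFC male 62, above the other KFC males. ENSTGUG00000000003 reached 164 CPM in HY of NF male 4, above the other NF males. The second component in HY had a score of 24.8 in ISO male 12. The first component in HY had a score of 122 in KF male 44, the library with the lowest correlation with the HY median.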

How the results depend on the processing

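The count of genes that differed between males with a female and males alone was 0 in HY, in NST and for the mean over regions under every alternative run. In TN it was 3 with DESeq2 and ran from 0 to 3 without single control libraries. With DESeq2 the count was 2 for KF against ISO in NST, 1 for KFC and 5 for NF against ISO in TN, 1, 18 and 2 for the difference among KFC, KF and NF in HY, NST and TN, and 2 and 1 for LPS minus control males in NST and TN. With control-injected libraries only, the difference among KFC, KF and NF in NST gave 2. Without single control libraries this count ran from 0 to 13 in NST and 0 to 1 in TN, as did KFC against ISO in TN (0 to 1). Differences between regions gave 0 in every alternative run, also with no replicate block (0, 0 and 0). The number of genes with 1 direction in all regions ran from 6071, with KF and NF only, to 7846 with no filter, where more genes were tested. It was 6226 to 6815 without single males. Without single libraries, the difference in component score ran from -1.57 to 9.89 for the first in HY, from -17.2 to 0.208 for the first in NST and from -19.2 to 5.87 for the second in NST. The signs changed without KF male 44, ISO male 50 and NF male 20 in turn. The last had a permutation p of 0.0283 without KFC male 62, and the cause was not tested. No direction of the 4 named genes reversed in any region or alternative. Genes of low counts have the widest intervals, and depth limits them most.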
